A study of Danio rerio with 16 samples.

Results

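The array carried probes for 40 zebrafish miRNAs with high catalogue numbers, namely every non-control name from miR-458 to miR-464 or from miR-722 upward that was not marked with an asterisk. The rule that chose them, out of 245 zebrafish miRNAs on the array, used names alone, but earlier results of these data were known when it was set. Of the 40, 17 were detected on at least 1 of the 16 arrays and 23 on none, and 10 were detected often enough to be tested for a change. The 10 tested were miR-458, miR-724, miR-725, miR-726, miR-727, miR-735, miR-738, miR-2184, miR-2188 and miR-2190. With valproic acid, miR-724 was lower at 48 and at 96 hours post-fertilization (hpf), miR-458 and miR-727 were lower at 96 hpf, and no member was called higher. That is 1 of 10 tested members at 48 hpf and 3 at 96 hpf, against 29.2% and 32.6% of all 178 tested miRNAs. None of these calls held with another background correction (normexp) or in the deposited values, which are not scaled between arrays. With normexp few of all tested miRNAs passed for VPA at 48 hpf and none at 96 hpf. That loss is therefore not particular to the members, and the unscaled values carry the brightness of each array. miR-727 lay near the floor of the signal. With age, miR-724, miR-726, miR-458 and miR-2184 were higher at 96 than at 48 hpf in vehicle and in treated embryos. Called with age were 6 members in vehicle and 4 in treated embryos, against 80.3% and 77.5% of all tested. Of these rises only those of miR-724 and miR-726 in vehicle held with normexp, for which no share of all tested miRNAs is given for age.

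The samples were whole embryos of the wildtype TL strain of zebrafish. Vehicle embryos were kept in ethanol, the carrier, and treated embryos in valproic acid (VPA, a drug against seizures and an inhibitor of histone deacetylases), in both cases from 4 hpf, and total RNA was taken at 48 or at 96 hpf. Each of the 4 groups held 4 arrays, and the labels give no VPA dose and do not say whether replicates were separate clutches or how many embryos a sample pooled. All 48 hpf arrays lay on 1 slide and all 96 hpf arrays on the other, so that an effect of age cannot be told apart from one of the slide. On either slide vehicle arrays lay in 1 column and VPA arrays in the next, so that treatment and column cannot be told apart either.

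MicroRNAs are short RNAs that guide Argonaute proteins to partly complementary messenger RNAs, which are then repressed. They are cut from hairpins that often lie inside introns of host genes or in clusters, and one arm of the hairpin usually accumulates while the other, written with an asterisk in older catalogues, is degraded. Catalogue numbers were given in order of discovery, so that high numbers in zebrafish belong to sequences found after the broadly conserved families, many of them by sequencing of small RNA from fish. Several lie beside genes of one cell type, among them opsin genes of photoreceptors. In RNA of whole embryos, fewer cells of a type and less RNA per cell cannot be told apart.

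The probes of some members are shown because the array measures a miRNA only through them. Among those shown, no change passed for miR-735 and miR-2188, and miR-728 was untested. miR-725, called higher with age in vehicle, is not shown. An Agilent miRNA probe is complementary to the 3′ part of the miRNA, so its letters are not those of the miRNA itself. Each sequence is the longest probe of its miRNA, 5′ to 3′, and capitals mark the bases it has beyond the shortest probe.
miR-724: aacagtcgcaaattccC
miR-458: gcagtaccattcaaagaG
miR-726: ccgagttctgctagtAG
miR-727: taagtcttcaactcgcC
miR-728: gaaaacgtagtgtacttagT
miR-2184: agcacataaactcttactgT
miR-735: gtcaagtttagcggtG
miR-2188: ggacatgtgaggttgG
The capitals mattered for the detection of some members and not of others. From shortest to longest, the probes of miR-726 were detected on 7, 7 and 8 arrays. Each probe of miR-725 and of miR-738 was detected on 16. For miR-458, miR-727, miR-735 and miR-2188 the shorter probe, which lacks 1 base, was well above background on 0 arrays, while the longer was so on 12, 5, 11 and 16 arrays. For miR-724 the shorter probe was detected on 8 arrays against 13 for the longer, and for miR-2184 on 1 against 9. The longer probe stood for these miRNAs throughout, so most of these values rest on 1 probe each. No probe of a member shared 10 or more bases in a row with a probe of another miRNA, so that these probes do not overlap with a close family member on the array.

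The array design places the probes on danRer6 (Zv8). On that build miR-724 maps to chr11:2283201-2283216, miR-458 to chr14:26650610-26650626, miR-726 to chr11:25241491-25241506, miR-727 to chr24:25897094-25897109, miR-728 to chr24:25902228-25902246, miR-735 to chr24:36468727-36468741 and miR-2184 to chr10:33936740-33936758. These spans are 1 base shorter than the probes printed above, and miR-2188 has no position there. Of the 40 members 33 had 1 position, 4 had several and 3 had none. By name, 38 of the 40 matched a gene in RefSeq (assembly GRCz12tu), and 23 of these lay inside the span of a protein-coding gene. Among them, miR-724 lies within cpne5b, which encodes a copine, a calcium-dependent phospholipid-binding protein. miR-458 lies within htr4, a serotonin receptor gene, miR-735 within mybpc2b, which encodes a myosin-binding protein C, and miR-2188 within ank1a, an ankyrin gene.

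A miRNA was called detected on an array where over 50% of the spots of its best probe were flagged well above background. At 48 hpf 6 of the 40 members were detected on at least 3 of 4 vehicle arrays, against 61.6% of all 245 zebrafish miRNAs, and 4 on at least 3 of 4 VPA arrays, against 55.5%. At 96 hpf it was 10 members in vehicle, against 70.2% of all, and 9 in VPA, against 69.8%. The members' shares were 15%, 10%, 25% and 22.5% in that order, below the background in every group. The 4 members detected on all 16 arrays were miR-725, miR-738, miR-2188 and miR-2190. miR-726 was detected on 0 of 8 arrays at 48 hpf and on 8 of 8 at 96 hpf. miR-727 was detected on 0 arrays at 48 hpf, on 3 vehicle arrays and on 2 VPA arrays at 96 hpf. miR-2184 was detected on 0 vehicle arrays and 1 VPA array at 48 hpf and on 4 of each at 96 hpf. miR-724 was detected on 4 vehicle arrays but 1 VPA array at 48 hpf, miR-458 on 3 and 1, and miR-735 on 2 and 1, and all 3 were detected on every array at 96 hpf.

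**Figure D1:**
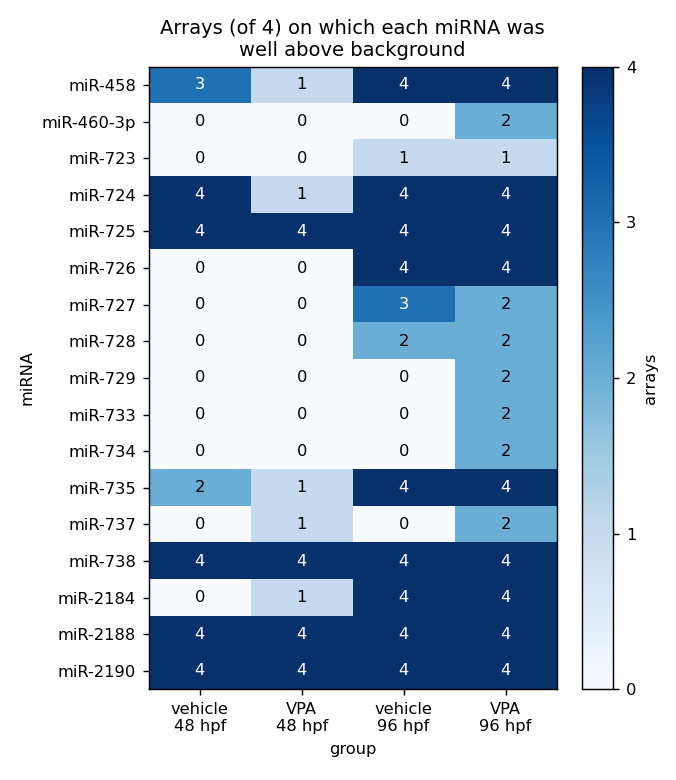
Number of arrays, out of 4, on which each of the 17 members detected anywhere was well above background (rows are miRNAs, columns the 4 groups, colour and number the arrays). 4 members were detected on all 4 arrays of every group, and miR-726 on 0 arrays at 48 hpf and on 4 of 4 in each group at 96 hpf.

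The other 7 members detected anywhere were untested. The count of members detected moved with the brightness of the array, given as the 75th percentile of its signal. At 48 hpf the vehicle arrays had percentiles of 1220, 1179, 897 and 1183 and 7, 7, 5 and 6 members detected. The VPA arrays of that age had 730, 522, 507 and 2356, with 4, 4, 4 and 9 members. At 96 hpf the vehicle arrays had 2070, 1956, 2091 and 2406 with 10, 9, 12 and 11 members, and the VPA arrays 1249, 1465, 3415 and 6179 with 9, 9, 17 and 16. Replicate 4 of VPA at 48 hpf and replicates 3 and 4 of VPA at 96 hpf were brighter than every vehicle array of their age. Without them, a choice made after seeing the data, the members detected on any VPA array fell from 9 to 4 at 48 hpf and from 17 to 9 at 96 hpf.

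**Figure D2:**
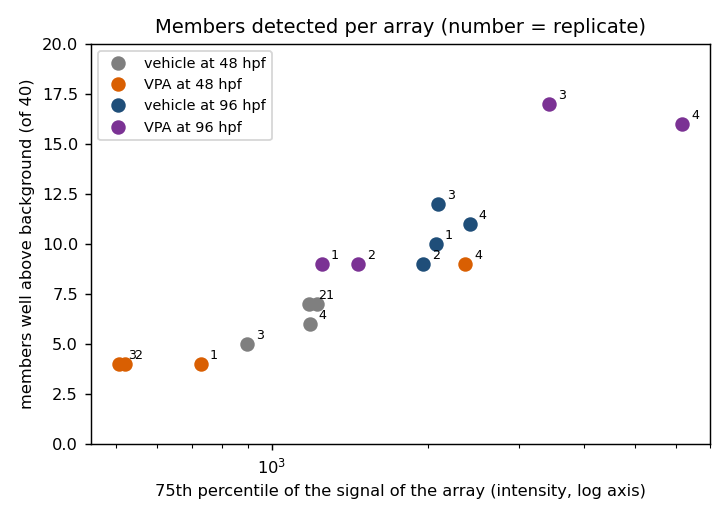
Members well above background (vertical axis, of 40) against the 75th percentile of the signal of the array (horizontal axis, intensity on a log scale), 1 point per array, coloured by group and numbered by replicate. The arrays with the highest percentiles, VPA at 96 hpf replicates 3 and 4, showed 17 and 16 members.

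miR-460-3p, miR-729, miR-733 and miR-734 were seen only on replicates 3 and 4 of VPA at 96 hpf, and miR-737 on those and on replicate 4 of VPA at 48 hpf. miR-723 was seen on replicate 3 of vehicle and of VPA at 96 hpf. In these 6 members every array lay between -3.95 and -3.88 on the log2 scale of the signal divided by the 75th percentile of the array. The floor set for that scale was -3.95, and values at it have no order. The remaining 23 members, detected on 0 arrays, were miR-459, miR-460-5p, miR-461, miR-462, miR-722, miR-730, miR-732, miR-736, miR-740, miR-1388, miR-1788, miR-2185, miR-2186, miR-2187, miR-2189 and each of miR-2191 to miR-2198. miR-736 lies within myh7, a myosin heavy chain gene, and miR-722 within gcgrb, a glucagon receptor gene. Being below background on these arrays is a limit of the signal and does not show absence. For comparison, 18 of 21 marker miRNAs were detected on every array. Most of the 21 mark tissues of the embryo, such as miR-1 of muscle and miR-124 of neurons. miR-430a, miR-430b and miR-430c, all among the 18, stand for the clearance of maternal RNA and not for a tissue.

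miR-724 had the largest VPA change of any tested member. At 48 hpf its log2 level was -2.52, -2.69, -2.85 and -2.71 on the vehicle arrays and -3.77, -3.66, -3.61 and -3.66 on the VPA arrays. The groups did not overlap. The mean fell from -2.69 ± 0.14 to -3.67 ± 0.07 (SD, n = 4), a change of -0.98 ± 0.08 (SE), or 1.97-fold lower with VPA, adjusted p = 4.43e-07 (limma). Only 1 of the 4 VPA arrays was well above background for it. On replicates 1, 2 and 3 of VPA the lowest signal well above background was -3.06, -2.70 and -2.57, so that on 2 of them a level like that of vehicle would have been near the limit of detection. With these 3 arrays set at those limits, a bound added after seeing the data here and for the members below, the level was at least 1.23-fold lower with VPA. Each limit is that of the faintest flagged spot of the array. A miRNA above it was not always flagged, so bounds of this kind are not strict. On the bright replicate 4 this limit was -4.29, and miR-724 was detected there at -3.66. Without the 3 bright arrays the change was -0.99, adjusted p = 5.26e-07. With normexp background correction its direction turned, to 0.20 (adjusted p = 0.671), and in the deposited unscaled values it was -0.72 (adjusted p = 0.947). The shorter probe of miR-724 changed by 0 at 48 hpf, so that this call rests on the longer probe alone.

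At 96 hpf miR-724 stood at -0.69, -0.80, -0.72 and -0.89 in vehicle and at -1.31, -1.42, -1.40 and -1.62 in VPA embryos. Every VPA array was again below every vehicle array. The change was -0.66 ± 0.08, or 1.58-fold lower, adjusted p = 1.51e-05 (limma), and the shorter probe changed by -0.72. With no floor the same change had an adjusted p of 0.0811. It did not pass with normexp (-0.64, adjusted p = 0.366) or in the unscaled values (-0.43, adjusted p = 0.98). The VPA effects at the ages differed by 0.32 ± 0.11 (96 minus 48 hpf), which did not pass (adjusted p = 0.0697), although it passed without replicate 3 of vehicle at 48 hpf (adjusted p = 0.0338), without replicate 4 of VPA at 96 hpf (0.00783) and without the 3 bright arrays (0.0175). The rise with age was 1.92 ± 0.08 in vehicle, or 3.78-fold (adjusted p = 2.87e-12), and 2.24 ± 0.08 in VPA, or 4.71-fold (adjusted p = 4.23e-13). With the 3 undetected VPA arrays of 48 hpf at their limits the latter was at least 2.95-fold, and with normexp it was 0.55 (adjusted p = 0.186).

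miR-458 showed a VPA change at 96 hpf. Its level was -2.15, -2.16, -2.12 and -2.23 on the vehicle arrays of that age and -2.52, -2.50, -2.47 and -2.89 on the VPA arrays. The groups did not overlap, and replicate 4 of VPA lay below the other 3. The change was -0.43 ± 0.08, or 1.35-fold lower, adjusted p = 0.000959 (limma). It was -0.34 without the 3 bright arrays (adjusted p = 0.00114), but did not pass with normexp (-0.56, adjusted p = 0.423) or in the unscaled values (-0.20, adjusted p = 0.98). At 48 hpf the level was -3.50 ± 0.11 in vehicle and -3.52 ± 0.06 in VPA (SD, n = 4), with values from -3.65 to -3.38, and the difference of -0.02 did not pass (adjusted p = 0.901). There 3 of 4 VPA arrays were not well above background. The VPA effects at the ages differed by -0.41 ± 0.12, adjusted p = 0.0276. This difference did not pass with normexp (adjusted p = 0.129), with no floor (0.161) or in the unscaled values (0.858). That call was lost without replicate 3 of vehicle at 48 hpf (adjusted p = 0.0678), replicate 2 of VPA at 48 hpf (0.0663) or replicate 1, 2 or 3 of vehicle at 96 hpf (0.0535, 0.0504 and 0.0634), and in the mean of all probes (0.0513). With age miR-458 rose by 1.34 ± 0.08 in vehicle, 2.52-fold (adjusted p = 6.88e-10), and by 0.93 ± 0.08 in VPA, 1.90-fold (adjusted p = 7.27e-08). At 48 hpf 3 vehicle arrays and 1 VPA array were well above background, and with the others at their limits the rises were at least 2.42-fold and 1.30-fold. With normexp the first was 0.80 (adjusted p = 0.0726) and the second -0.46 (adjusted p = 0.262).

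**Figure D3:**
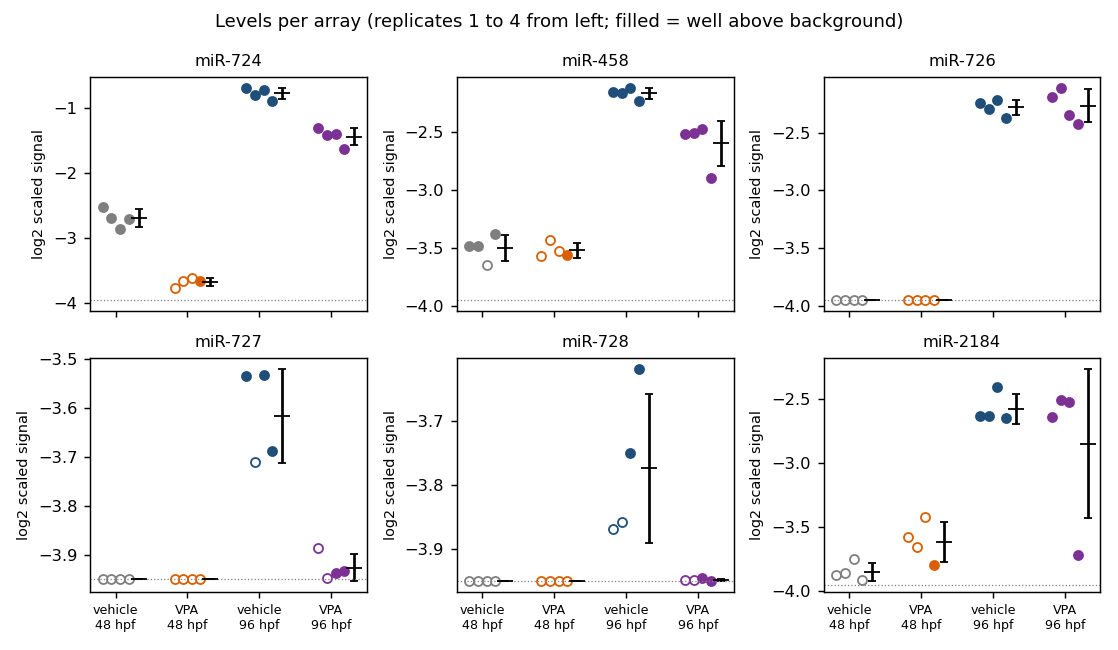
Log2 signal divided by the 75th percentile of the array (vertical axis) for 6 members, 1 point per array with replicates 1 to 4 from the left, filled where well above background. The bar is the mean ± SD of the 4 arrays and the dotted line the floor, and vertical scales differ between panels. For miR-724 VPA arrays lie below vehicle arrays at both ages, for miR-458 and miR-727 at 96 hpf, and for miR-726 all 48 hpf arrays lie on the floor.

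Several members lie at opsin genes, which encode the light-absorbing proteins of photoreceptors and of other light-sensitive cells. In RefSeq the nearest protein-coding genes to miR-726 are opn1sw2 and opn1lw1, cone opsins for short and long wavelengths, and one of the nearest to miR-729 is opn1sw1, another cone opsin. miR-727 and miR-728 both lie within tmtopsb, a teleost multiple tissue opsin gene, with 5119 bases between their probes on danRer6. At 48 hpf miR-726, miR-727, miR-728 and miR-729 lay at the floor on every array. This included the bright replicate 4 of VPA, where the lowest signal well above background was -4.29. Not every signal above that value was flagged there, since miR-2189, at -3.93, was not well above background.

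At 96 hpf miR-726 stood at -2.24, -2.29, -2.22 and -2.37 in vehicle and at -2.19, -2.11, -2.35 and -2.43 in VPA embryos. The groups overlapped, and the difference of 0.01 ± 0.06 did not pass (adjusted p = 0.895), but it was 0.22 with quantile normalization (adjusted p = 0.00457) and 0.13 without the 3 bright arrays (0.048). Its rise with age was at least 2.66-fold in vehicle (adjusted p = 6.8e-13) and at least 1.74-fold in VPA (adjusted p = 6.7e-13). Both folds are lower bounds, though not strict ones, with each 48 hpf array set at its lowest signal that was well above background. The p-values belong to the differences fitted with the floor, 1.67 in vehicle and 1.68 in VPA. Both 48 hpf groups lay at the floor and added no spread, so these p-values may be too small. With normexp the rise in VPA was 0.36 and did not pass (adjusted p = 0.523). On the shorter probes of miR-726, with the floor, the rise in vehicle was smaller, 0.14 (15 bases) and 0.55 (16 bases). The folds therefore rest on the longest probe.

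miR-727 lay nearer to the floor. At 96 hpf it stood at -3.53, -3.71, -3.53 and -3.69 in vehicle and at -3.88, -3.95, -3.94 and -3.93 in VPA, so that all VPA arrays lay close to the floor and below all vehicle arrays. The change was -0.31 ± 0.05, or 1.24-fold lower, adjusted p = 0.000125 (limma). Since all 8 arrays of 48 hpf lay at the floor and added no spread, the fit of the 96 hpf arrays alone is given too, with an adjusted p of 0.00804. The floor also narrowed the spread of the VPA arrays of 96 hpf (SD 0.03, against 0.10 in vehicle). Both p-values may therefore be too small, and the fold depends on the floor. The call was lost with quantile normalization (-0.10, adjusted p = 0.0539) and with no floor (-0.51, adjusted p = 0.69). It was also lost with normexp (-0.77, adjusted p = 0.397) and in the unscaled values (-0.15, adjusted p = 0.98). The difference of the VPA effects, also -0.31 (adjusted p = 0.00513), rests on the same 96 hpf values, because both 48 hpf groups were at the floor, and it turned to 1.07 with no floor. The rise with age was at least 1.06-fold in vehicle (adjusted p = 9.56e-06, which may be too small because the 48 hpf arrays added no spread). This rise did not pass with normexp (0.59, adjusted p = 0.282) or in the unscaled values (0.99, adjusted p = 0.0978). In VPA both ages lay near the floor, and the change of 0.02 did not pass (adjusted p = 0.652). miR-728, untested, stood at -3.87, -3.86, -3.75 and -3.62 in vehicle at 96 hpf and between -3.95 and -3.94 on the VPA arrays of that age. It was well above background on 2 of 4 arrays in each of these groups, in VPA the bright replicates 3 and 4. Its VPA values lay at or near the floor, and no change is reported for it.

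miR-2184 was seen mainly at 96 hpf. Its level was -3.87, -3.86, -3.74 and -3.91 on the vehicle arrays and -3.58, -3.65, -3.42 and -3.80 on the VPA arrays at 48 hpf, where 1 of the 8 arrays was well above background. At 96 hpf it was -2.63, -2.63, -2.40 and -2.65 in vehicle and -2.64, -2.50, -2.52 and -3.72 in VPA. Replicates 1 to 3 of VPA lay within the range of the vehicle arrays, and replicate 4 lay below all 7 others. The VPA change at 96 hpf of -0.27 ± 0.20 did not pass (adjusted p = 0.345), and it was 0.02 without replicate 4. At 48 hpf the change was 0.24 (adjusted p = 0.397), and the adjusted p fell to 0.02 without replicate 4 of VPA at 96 hpf, which enters the shared spread. The rise with age was at least 2.11-fold in vehicle (adjusted p = 2.74e-05), where it was 0.80 with normexp (adjusted p = 0.115). In VPA it was 1.70-fold (adjusted p = 0.00237), or at least 1.14-fold with the 3 undetected arrays of 48 hpf at their limits. That call was lost with quantile normalization (adjusted p = 0.0555), and the value turned to -0.59 with normexp (adjusted p = 0.218).

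On danRer6 miR-2184 lies 9166 bases from miR-132, a miRNA known from neurons. At 48 hpf miR-132 was detected on 2 vehicle arrays and on 0 VPA arrays. With undetected arrays at their limits, its rise with age was at least 7.10-fold in vehicle (adjusted p = 4.54e-16) and at least 2.75-fold in VPA (adjusted p = 9.84e-15). With VPA it fell by 0.81 at 96 hpf (adjusted p = 8.35e-08). With normexp none of the tested miRNAs passed for VPA at 96 hpf, so that neither this call nor that of miR-459* below held. For 8 members the asterisk arm of the same hairpin had probes of its own. miR-459* was detected on 4 of 4 arrays of each group at 96 hpf and on 0 at 48 hpf, whereas miR-459, which lies within runx1, a gene of blood formation, was detected on none. With VPA miR-459* changed by -0.41 ± 0.06 at 96 hpf (adjusted p = 8.5e-05). Its mean there was -3.35 in vehicle and -3.75 in VPA, the latter near the floor of -3.95. Both 48 hpf groups of miR-459* lay at the floor and added no spread, so this p-value may be too small. miR-2188*, named after its values were seen, was detected on 4 vehicle and 3 VPA arrays at 48 hpf and on 3 and 4 at 96 hpf. Its change with age was -1.15 ± 0.09 in vehicle (adjusted p = 1.04e-08) and -1.16 ± 0.09 in VPA (adjusted p = 1.14e-08), and its changes with VPA, 0.18 at 48 hpf (adjusted p = 0.152) and 0.16 at 96 hpf (0.185), did not pass. Means of miR-2188* at 96 hpf, -3.73 in vehicle and -3.57 in VPA, lay toward the floor. With the undetected vehicle array of 96 hpf at its limit, the fall in vehicle was at least 2.12-fold. The asterisk arms of miR-723, miR-727, miR-1388, miR-1788, miR-2185 and miR-2187 were detected on 0 arrays.

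For the 4 members detected on every array, and for miR-735, no change with VPA passed. miR-738 stood at 0.63, 0.27, 0.41 and 0.78 in vehicle and 0.50, 0.15, -0.03 and -0.04 in VPA at 48 hpf. The groups overlapped. The change of -0.37 ± 0.16 missed the threshold (adjusted p = 0.0981), and passed when replicate 1 of VPA was left out (-0.49, adjusted p = 0.0405). At 96 hpf it was -0.29 ± 0.16 (adjusted p = 0.197). Its probes of 12 and 13 bases, 76.9% G and C in the longer, are as short as those of miR-2185 and miR-2198, and no member has shorter ones.

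miR-725 stood at -0.96, -0.24, -0.65 and -0.78 in vehicle and -0.41, -0.35, -0.32 and 0.19 in VPA at 48 hpf. The change of 0.44 ± 0.19 did not pass (adjusted p = 0.0896), but passed without replicate 2 of vehicle (0.58, adjusted p = 0.0381) and without replicate 4 of VPA at 96 hpf (adjusted p = 0.0321). At 96 hpf the change was -0.15 ± 0.19 (adjusted p = 0.575). Its rise with age in vehicle was 0.48 ± 0.19 or 1.40-fold (adjusted p = 0.0268). The call was lost without replicate 1 or 4 of vehicle at 48 hpf (0.0905 and 0.064). It was lost too without replicate 2 or 4 of vehicle at 96 hpf (0.0519 and 0.0705). Neither did it hold with quantile normalization (0.0763), normexp (0.066) or no filter (0.0546).

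miR-2188 stood at -1.05, -1.14, -1.26 and -1.16 in vehicle and -1.30, -1.33, -1.37 and -1.28 in VPA at 48 hpf. All VPA arrays lay below all vehicle arrays, and the change of -0.16 ± 0.10 missed the threshold (adjusted p = 0.223). It passed in the 48 hpf arrays alone (adjusted p = 0.0277) and without replicate 4 of VPA at 96 hpf (0.027), an array on which miR-2188 was at -0.88 against -1.40 to -1.31 on the other 3. At 96 hpf the change was 0.01 ± 0.10 (adjusted p = 0.935).

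miR-2190 ranged from -2.54 to -2.12 in vehicle and from -2.38 to -1.83 in VPA at 48 hpf, and from -2.13 to -2.02 and from -3.15 to -1.95 at 96 hpf. Its changes were 0.19 ± 0.19 (adjusted p = 0.467) and -0.43 ± 0.19 (adjusted p = 0.0998), and the second passed without replicate 1 of VPA at 96 hpf (-0.61, adjusted p = 0.0132). miR-735 ranged from -3.71 to -3.23 and from -3.35 to -3.02 at 48 hpf, and from -3.39 to -3.17 and from -3.45 to -2.67 at 96 hpf, in vehicle and VPA in turn. Its changes of 0.21 ± 0.15 (adjusted p = 0.297) and 0.18 ± 0.15 (adjusted p = 0.373) did not pass. Without the 3 bright arrays its change at 96 hpf was 0.46 (adjusted p = 0.0112).

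**Figure D4:**
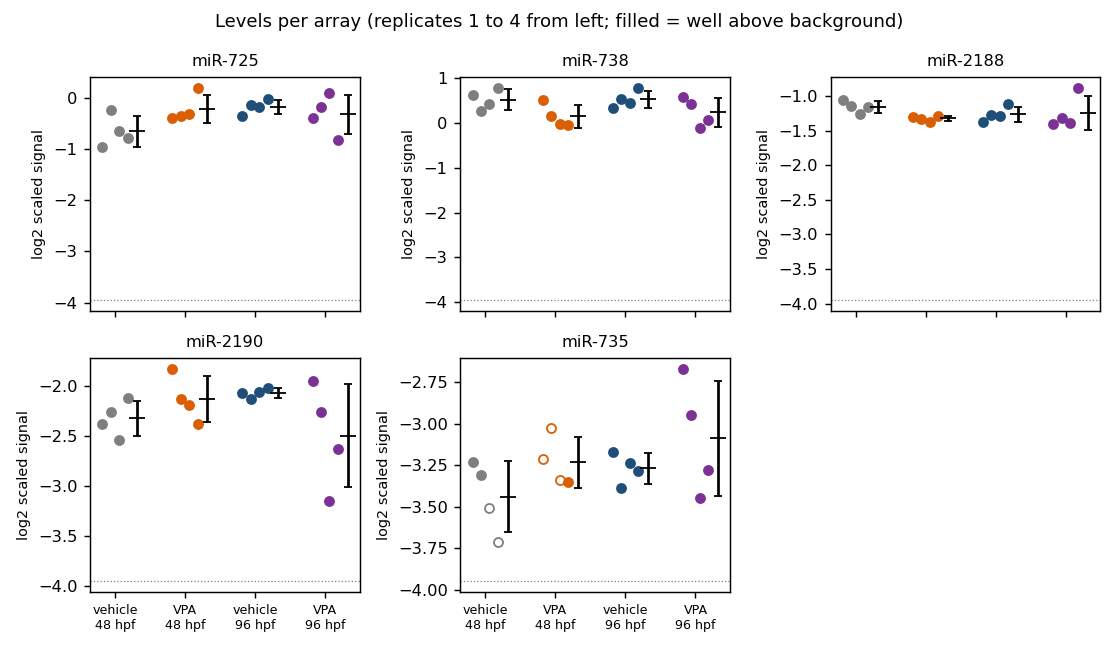
Log2 signal divided by the 75th percentile of the array (vertical axis) for miR-725, miR-738, miR-2188, miR-2190 and miR-735, 1 point per array with replicates 1 to 4 from the left, filled where well above background, with the mean ± SD of the 4 arrays beside them. The groups overlap in most panels, and the VPA arrays at 96 hpf spread most for miR-2190, from -3.15 to -1.95.

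Over the 10 tested members, 1 passed the threshold for VPA at 48 hpf and was lower, against 29.2% of the 178 tested miRNAs in either direction, 16.3% higher and 12.9% lower. At 96 hpf 3 passed and were lower, against 32.6% of all, 14% higher and 18.5% lower. At an unadjusted p under 0.05 the counts of members were 3 and 4. The share of all tested miRNAs at an unadjusted p is not given here, so unadjusted counts cannot be set against the shares above. For the difference of the VPA effects 2 members passed, both lower, against 12.9% of all, 3.93% higher and 8.99% lower. The median change of the tested members was 0 at 48 hpf and -0.28 at 96 hpf, beside 0.00 and -0.03 over all tested. The value of 0 comes from miR-726 and miR-727, at the floor in both groups of 48 hpf, and is not a measured lack of change. Shares of 10 members near these backgrounds show nothing about the members as a group, and the filter kept only members that were bright in some group. With normexp background correction 0 of the 10 members passed at either age, with 3 at 48 hpf and 0 at 96 hpf at an unadjusted p under 0.05, while 5 and 0 of all 178 passed. In the deposited values, which carry the brightness of each array unscaled, 0 members passed at either age, also at an unadjusted p under 0.05. There the SE of the miR-724 change at 96 hpf was 0.51, against 0.08 in the scaled values. A call lost in the unscaled values therefore says little about the change.

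With age 6 of the 10 tested members passed in vehicle, all higher at 96 hpf (2 with normexp, miR-724 and miR-726), against 80.3% of all tested miRNAs, 46.1% higher and 34.3% lower. In VPA 4 passed, all higher (none of them with normexp), against 77.5% of all, 41.6% higher and 36% lower. These shares of all do not belong to the normexp counts. The share of all tested miRNAs with normexp is not given for age, so the loss cannot be called particular to the members. A member detected only at 96 hpf passed the filter through that age, so the direction of these members was partly set by it. The median change with age was 0.41 in vehicle and 0.12 in VPA, beside 0.12 and 0.02 over all tested. The changes with age that did not pass were those of miR-735, miR-738, miR-2188 and miR-2190 in both treatments and of miR-725 and miR-727 in VPA. They ranged from -0.10 to 0.25 in vehicle and from -0.37 to 0.14 in VPA. The fall of miR-2190 in VPA passed with quantile normalization (-0.60, adjusted p = 0.0133) and normexp (-0.95, 0.0131). It also passed with the mean of all probes (-0.39, 0.0282) and without replicate 1 of VPA at 96 hpf (-0.55, 0.00851). In the unscaled values it turned to 1.23 (0.0242). The shorter probe of miR-738 changed by -0.39 in vehicle, the longer by 0.00.

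**Figure D5:**
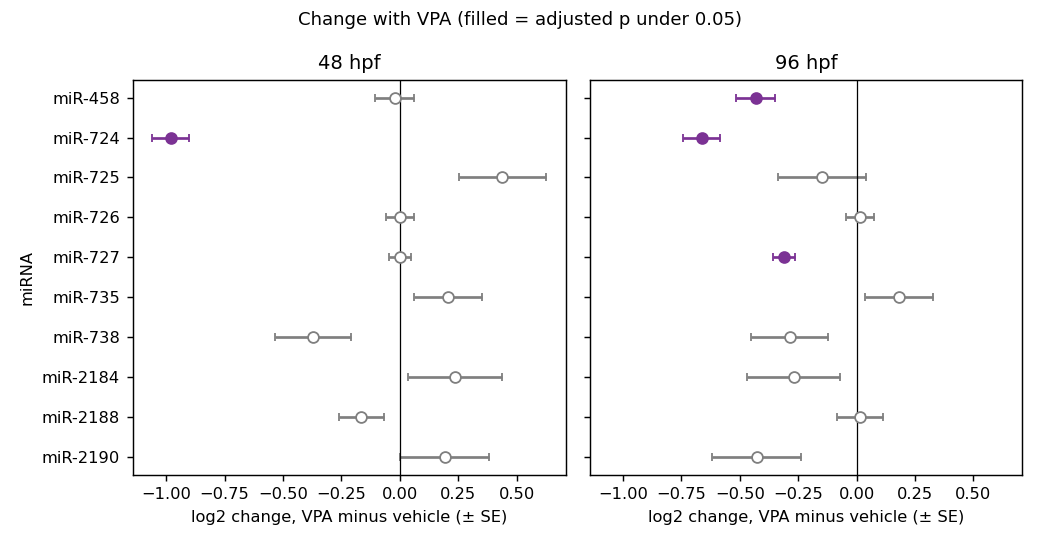
Log2 change with VPA (horizontal axis, VPA minus vehicle, ± SE) for the 10 tested members at 48 hpf (left) and 96 hpf (right), from limma on 4 arrays a group, filled where the adjusted p was under 0.05. miR-724 lies at -0.98 and -0.66, and miR-458 and miR-727 at -0.43 and -0.31 at 96 hpf.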

How the data were processed

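The authors hybridized Cy3-labelled total RNA to 1-colour Agilent miRNA arrays. The deposited scanner files hold intensity per spot, background-subtracted within each array and without scaling between arrays. Agilent Feature Extraction 9.5.3.1 produced them, per the file headers (9.5 per the submitters' processing notes). The deposited value columns are that intensity, unscaled, and 100% of them lie within 1% of the scanner value. Deposited flags of 0 or 1, per the file headers, mark spots well above background or outlying.

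Outlier spots (3.32% to 8.07% per array) were left out. Signals were divided by the 75th percentile of the array's non-control spots, since 56.0% of probes were detected on an average array, floored at 0.0648, and averaged as log2 values over spots. Each miRNA was read from its brightest probe. It was tested if, in some group, 3 or 4 arrays had over 50% of its spots well above background. The 178 tested miRNAs were fitted with limma 3.58.1 in R 4.3.3 (data.table, version 1.17.8; figures with matplotlib 3.10.9, pandas 2.3.3 and Python 3.11.15), two-sided, with Benjamini-Hochberg adjustment over all 178 and a threshold of 0.05. The fit was tested on simulated data with changes of 1 log2 unit and no floor. That test does not cover smaller changes or groups at the floor. A fold is given as a lower bound where 1 group had no array well above background. Such bounds are not strict, since a signal above the lowest flagged one of an array was not always flagged. The p-value beside a lower bound belongs to the difference fitted with the floor and not to the bound. The number of arrays limits the precision, and p-values measure the spread between these samples, which may be technical.

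Same-numbered vehicle and VPA arrays had residual correlations of 0.286, 0.285, 0.273 and 0.244 at 96 hpf. At 48 hpf they were 0.0977, -0.184, 0.324 and -0.151. Between same-numbered VPA arrays of 48 and 96 hpf they were 0.0803, 0.513, 0.170 and 0.173. Differently numbered arrays were not compared, so whether the numbers are pairs was not tested. Any member could be named, with values per array for those called with VPA or age or lying within 10 kb of another member. Values of other members were added after they were seen. Members and lists were chosen with earlier results of these data known. Alternatives covered scaling, background correction, floor, probe, filter, value table, replicate block and left-out arrays. Mature miRNA sequences were not used here.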

Additional observations from a re-analysis of the deposited data

Results flagged for a closer look

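In 36 groups of 4 arrays of a tested member, 5 held an array far from the other 3 by Dixon's criterion, which chance meets in about 1 in 20 groups. 3 of the 5 were replicate 4 of VPA at 96 hpf, the brightest array, where miR-458 was at -2.89 (others -2.52 to -2.47), miR-2184 at -3.72 (others -2.64 to -2.50) and miR-2188 at -0.88 (others -1.40 to -1.31). The part of brightness in these values was not tested. miR-725 was at 0.19 on replicate 4 of VPA at 48 hpf (others -0.41 to -0.32), and miR-2184 at -2.40 on replicate 3 of vehicle at 96 hpf (others -2.65 to -2.63).

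The VPA effect differed between the ages for miR-458, by -0.41 (adjusted p = 0.0276), and for miR-727, by -0.31 (adjusted p = 0.00513), in limma's test of the difference (96 minus 48 hpf). For miR-727 both 48 hpf groups lay at the floor.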

How the results depend on the processing

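Member counts are given in the order VPA at 48 hpf, VPA at 96 hpf, difference, age in vehicle and age in VPA, where the reported counts were 1, 3, 2, 6 and 4. They became 0, 0, 0, 2 and 2 with normexp (3, 0, 5, 4 and 3 at an unadjusted p under 0.05). The last 2 were none of the 4 reported rises but miR-2190 (-0.95, adjusted p = 0.0131) and miR-735 (-0.96, adjusted p = 0.0382), both lower at 96 hpf. The first 3 were 0, 0 and 0 in the deposited unscaled values (0 each unadjusted), where age in VPA gave 9. Those values carry array brightness, and the 75th percentiles of the VPA arrays were 507 to 2356 at 48 hpf and 1249 to 6179 at 96 hpf. Requiring detection on all 16 arrays left 4 members, and the counts were 0, 0, 0, 1 and 0 (2, 1, 2, 1 and 0 unadjusted). With no floor VPA at 96 hpf gave 1 and the difference 0 (4 unadjusted), with no filter VPA at 96 hpf gave 6, and the difference gave 1 with quantile normalization and 1 with the mean of all probes. The fit with no filter also took in members near the floor, such as miR-729, with means at 96 hpf of -3.93 in vehicle and -3.95 in VPA. The 48 hpf arrays alone gave 2 at 48 hpf. Without the 3 bright VPA arrays, chosen after seeing the data, VPA gave 4 at 48 hpf and 5 at 96 hpf. Leaving out each array gave 1 to 4, 3 to 4, 1 to 3, 5 to 6 and 4 to 5. The 4 at 48 hpf came without replicate 4 of VPA at 96 hpf, and the counts of 2 without replicate 2 of vehicle or replicate 1 of VPA at 48 hpf. The difference gave 1 without replicate 2 of VPA at 48 hpf or replicate 1, 2 or 3 of vehicle at 96 hpf. With the replicate block the counts were again 1, 3, 2, 6 and 4, and the block changed no other call. Detection counts by any spot or by 90% of spots ranged over 5 to 8, 4 to 6, 9 to 12 and 9 to 12. No share over all miRNAs stands beside the alternative counts in this paragraph, so they show nothing about the members as a group.

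Of 1238 recomputed member changes 68 turned in sign. Of those that had passed 40 no longer did, and of those that had not 33 did, and some of these also turned. Where a sign turned, the cause was not tested. Among called changes, normexp turned miR-724 with VPA at 48 hpf to 0.20, and the rise in VPA embryos to -0.59 for miR-2184 and -0.46 for miR-458, and no floor turned the miR-727 difference to 1.07. The other turned values belong to changes that had not passed. For miR-726 and miR-727 with VPA at 48 hpf no change is reported, and none was recomputed. With normexp they were, for VPA at 48 hpf, 0.15 (miR-2188) and 0.71 (miR-458), for VPA at 96 hpf -0.095 (miR-2188), -0.23 (miR-726) and -0.31 (miR-735), for the difference -0.24 (miR-2188), -0.85 (miR-724) and -1.29 (miR-726), for age in VPA -0.30 (miR-2188), -1.04 (miR-727) and -0.96 (miR-735), and for age in vehicle -0.018 (miR-738). In the unscaled values they were, for VPA, -0.24 (miR-2190) and 0.027 (miR-458) at 48 hpf and 0.082 (miR-725) at 96 hpf, for the difference 0.043 (miR-2190), 0.080 (miR-725) and 0.36 (miR-735), and for age 0.83 (miR-2188, vehicle), 1.23 (miR-2190, VPA) and 1.498 (miR-725, VPA). With quantile normalization they were 0.067 (miR-458, VPA at 48 hpf), 0.088 (miR-735, difference), and for age -0.11 (miR-2190) and -0.30 (miR-735) in vehicle and -0.056 (miR-2188) and -0.21 (miR-735) in VPA. With the percentile over probes detected on all arrays they were 0.013 (miR-2188, age in vehicle), 0.068 (miR-725, age in VPA) and 0.022 (miR-735, difference). With the mean of all probes they were -0.20 (miR-724, difference), -0.085 and -0.20 (miR-738, age in VPA and in vehicle), and with no floor 0.080 (miR-735, difference). Without the bright arrays they were 0.0039 (miR-2184) and -0.097 (miR-2188) for VPA at 96 hpf, -0.023 (miR-2188) and 0.072 (miR-725) for age in VPA, and 0.21 (miR-735) for the difference.

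Leaving out 1 array turned these uncalled changes, over ranges of -0.071 to 0.018 (miR-458, VPA at 48 hpf), -0.38 to 0.021 (miR-2184), -0.11 to 0.066 (miR-2188), -0.29 to 0.016 (miR-725) and -0.039 to 0.066 (miR-726) for VPA at 96 hpf, -0.039 to 0.066 (miR-726), -0.16 to 0.096 (miR-735) and -0.028 to 0.21 (miR-738) for the difference, -0.086 to 0.087 (miR-738) for age in vehicle, and -0.048 to 0.13 (miR-2188), -0.24 to 0.060 (miR-725) and -0.026 to 0.21 (miR-738) for age in VPA. Signals near the floor limit what is said of miR-727, miR-728 and miR-735.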
